A study of Rattus norvegicus with 8 samples.

Results

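The retinoid genes described here are 9 genes that make, carry, bind or sense retinoic acid, the active form of vitamin A: Aldh1a1 and Aldh1a2 (synthesis), Rbp4 and Stra6 (transport and uptake), Crabp2 (binding inside the cell), and the nuclear receptors Rara, Rarb, Rxra and Rxrg. They were taken by gene symbol from the authors' deposited table of 16266 transcripts, in which all 9 had an entry. Rara and Rxrg each had 2 transcripts and the other 7 genes had 1, so the group comprised 11 transcripts. The list was chosen by the FPKM of both groups, the same values that are given below, so these are a description and not a test.

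RNAseq was performed on hippocampi of 8 adrenalectomized (ADX) rats, which lack their own adrenal source of corticosterone. A vehicle of 0.45% saline was infused for 30 min at ZT 2 (zeitgeber time, hours after lights on) in 4 rats, and corticosterone at 0.75 mg/mL, as its complex with 2-hydroxypropyl-beta-cyclodextrin, was infused in the same way in 4 rats (CORT). The infusion at ZT 2 is in the inactive phase, and the series title places collection 2 h after it. The paper's methods count these 2 h from the start of the infusion and give ZT 4 for collection. The labels name Sprague-Dawley rats of 3 to 4 months, whereas the paper's methods name younger male Lister hooded rats, and all of them drank corticosterone while recovering from surgery until it was replaced by saline before the experiment. The titles of the vehicle libraries call them untreated, whereas their treatment label names the vehicle. FPKM are fragments per kilobase of transcript scaled for sequencing depth, here with the authors' geometric normalization between libraries. The authors' deposited table gives 1 FPKM for each group and none for a single rat. No spread between rats or number of reads can therefore be given, and no test was made here, since the authors' own comparison columns in that table were not used. A difference is described here by its log2 ratio (CORT FPKM divided by vehicle FPKM), and a transcript is counted as lower or higher when the FPKM of the groups differed by at least 1.5-fold.

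Retinol reaches tissues bound to the carrier RBP4 and can enter cells through the membrane protein STRA6. Inside the cell it is oxidized to retinal and then, by the retinaldehyde dehydrogenases ALDH1A1, ALDH1A2 and ALDH1A3, to retinoic acid, which CRABP2 carries to nuclear receptors. The receptors RAR and RXR bind DNA as heterodimers at retinoic acid response elements, many of which are a repeat of a 6-base half-site, and CYP26 enzymes remove retinoic acid. In the adult brain the meninges, the membranes that cover it, are a known site of Aldh1a2 expression, and retinoic acid signaling takes part in hippocampal neurogenesis and synaptic plasticity.

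Aldh1a2, Crabp2 and Rbp4 were the 3 genes that were lower in the CORT group by at least 1.5-fold, and the bases before their annotated starts are shown because the expression results below are mainly about them. The sequences are from RefSeq (GRCr8 build, which differs from the rn6 build of the expression table) and run 5′ to 3′ on the gene's strand over the 250 bases before the start. Capitals mark the octamer ATGCAAAT in Aldh1a2 and the TATA sequence TATAAA in Crabp2 and Rbp4.
Aldh1a2, chr8:80758391-80758640, plus strand: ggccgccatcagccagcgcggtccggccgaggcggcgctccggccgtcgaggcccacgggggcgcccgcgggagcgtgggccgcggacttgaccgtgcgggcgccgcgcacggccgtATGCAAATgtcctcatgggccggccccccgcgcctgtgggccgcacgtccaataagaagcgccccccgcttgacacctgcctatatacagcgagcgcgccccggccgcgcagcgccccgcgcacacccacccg
Crabp2, chr2:175714612-175714861, plus strand: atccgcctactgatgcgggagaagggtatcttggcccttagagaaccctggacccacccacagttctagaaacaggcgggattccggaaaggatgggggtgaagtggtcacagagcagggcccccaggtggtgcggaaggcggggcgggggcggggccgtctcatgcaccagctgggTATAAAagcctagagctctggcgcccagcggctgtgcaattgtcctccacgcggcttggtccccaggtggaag
Rbp4, chr1:245313552-245313801, minus strand: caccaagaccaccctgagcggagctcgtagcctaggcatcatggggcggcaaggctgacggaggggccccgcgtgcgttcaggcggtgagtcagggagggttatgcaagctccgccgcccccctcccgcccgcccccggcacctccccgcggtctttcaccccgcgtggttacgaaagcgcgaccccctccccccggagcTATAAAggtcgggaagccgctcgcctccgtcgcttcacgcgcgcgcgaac

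These 3 stretches were compared with those of all members, since each of the 9 genes has a promoter window of 300 bases, 250 before and 50 after its start. Both strands were searched for 5 motifs, which do not overlap in these windows. A retinoic acid response element was taken as 2 half-sites on 1 strand, each being AGGTCA or AGTTCA or GGGTCA or GGTTCA, separated by 5 or by 2 bases. The core of a glucocorticoid receptor site was taken as ACANNNTGT. The octamer and TATAAA were added after the sequences had been read. Of the 9 windows, 1 holds the repeat with a spacer of 5 bases, that of Rarb, and this repeat is found in 0.382% of 33469 rat promoter windows. The Rarb repeat begins 24 bases after the annotated start, with its half-sites in capitals.
Rarb, chr15:11336411-11336437, plus strand: ggaagGGTTCAccgaaAGTTCActcgc

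The repeat with a spacer of 2 bases was in none of the 9 windows and is in 0.170% of all windows. The glucocorticoid core ACANNNTGT was found in 1 member, Rxrg, after its start, and is found in 6.86% of all windows. ATGCAAAT was found in both synthesis genes, Aldh1a1 and Aldh1a2, and in 1.78% of all windows, while TATAAA was found in Crabp2 and Rbp4 and in 14.2%. These are matches of letters in a short window around 1 annotated start for each gene, and not measured binding sites. The GC content of the windows ranged from 48.3% in Aldh1a1 to 84.7% in Rxra, with 76.0% in Aldh1a2, 61.0% in Crabp2 and 71.7% in Rbp4.

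Among the 11 transcripts, 3 were lower and 1 was higher with CORT by at least 1.5-fold, and 7 lay within that range. Over all 16266 transcripts, 4.91% were lower and 4.21% were higher by the same measure, and over the 9923 transcripts in the FPKM range of the retinoid genes these shares were 3.98% and 3.41%. By at least 2-fold, 2 of the 11 transcripts were lower (2.03% of all transcripts) and 0 were higher (1.92% of all). The median log2 ratio of the 11 transcripts was 0.03, beside 0.02 over all transcripts, and was -0.074 over the 9 genes when the transcripts of each gene were summed. The 5 transcripts for synthesis, transport and binding had log2 ratios below 0, with a median of -0.64. The 6 receptor transcripts had log2 ratios above 0, with a median of 0.15, although those of Rara and Rarb were within 0.1 of 0 and were below it when both groups were scaled to the same FPKM total. For reference, 45.0% of all transcripts were below 0 and 55.0% above.

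**Figure D1:**
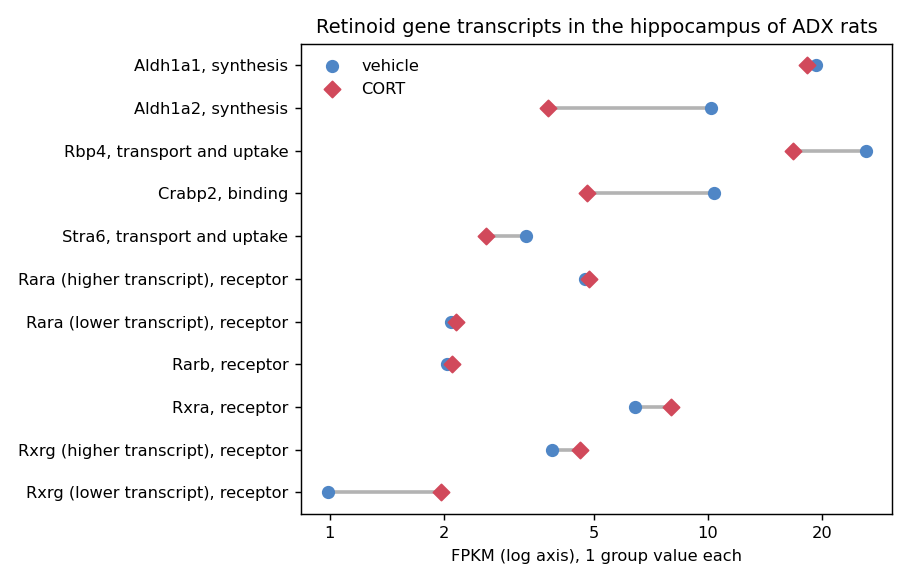
FPKM on a log axis of the 11 transcripts of the 9 retinoid genes in the vehicle (circle) and CORT (diamond) groups, with 1 group value each and no error available. Aldh1a2, Crabp2 and Rbp4 have the CORT value to the left of the vehicle value by at least 1.5-fold, and the less abundant Rxrg transcript has it to the right.

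Retinoic acid synthesis was represented by Aldh1a1 and Aldh1a2, which differed in their values. Aldh1a2 (chromosome 8 of rn6, between 77640221 and 77719489) encodes retinaldehyde dehydrogenase RALDH2. It was at 10.2 FPKM in the vehicle group and at 3.78 FPKM in the CORT group, a log2 ratio of -1.44, so that the CORT level was 37.0% of the vehicle level. Of the 15808 transcripts with at least 1 FPKM in a group, 133 (0.841%) had a lower log2 ratio. Fewer cells of a type that expresses a gene and less of its RNA per cell cannot be told apart in whole tissue. Aldh1a1 (chromosome 1, between 238222520 and 238264330) encodes another enzyme for the same step. It had 19.3 FPKM in vehicle and 18.3 FPKM in CORT rats, a log2 ratio of -0.07. Aldh1a1 thus made up 65.4% of the summed FPKM of both enzymes in the vehicle group and 82.9% in the CORT group, while the sum went from 29.5 to 22.1 FPKM. The third retinaldehyde dehydrogenase, Aldh1a3, had no transcript in the authors' deposited table, so this sum is of 2 genes only.

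Of the genes for transport and uptake, Rbp4 (chromosome 1, between 256806471 and 256813711), the secreted carrier of retinol, had the highest FPKM of the 9 genes. It was at 26.1 FPKM in the vehicle group and at 16.8 FPKM in the CORT group. Its log2 ratio of -0.64, a 1.55-fold lower value, lay close to the limit of 1.5-fold, and 619 transcripts (3.92%) with at least 1 FPKM in a group had a lower one. Stra6 (chromosome 8, between 62925356 and 62944437), the membrane receptor for RBP4, had 3.31 FPKM in vehicle and 2.58 FPKM in CORT rats, a log2 ratio of -0.36 that did not reach 1.5-fold. Both genes had the lower value in the CORT group, and the CORT minus vehicle difference was -9.31 FPKM for Rbp4 and -0.73 FPKM for Stra6.

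Crabp2 (chromosome 2, between 187322415 and 187326789), which delivers retinoic acid to RAR in the nucleus, had 10.4 FPKM in vehicle and 4.78 FPKM in CORT rats. The log2 ratio was -1.12, so that the CORT level was 46.0% of the vehicle level, and 226 transcripts (1.43%) with at least 1 FPKM in a group had a lower one. Its relative Crabp1, which also binds retinoic acid in the cytoplasm, had 8.93 FPKM in vehicle and 10.9 FPKM in CORT rats, a log2 ratio of 0.29. In the vehicle group Crabp2 had the higher FPKM of these 2 binding proteins, and in the CORT group Crabp1 had it.

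None of the receptor transcripts had more than 6.42 FPKM in the vehicle group, and 5 of the 6 were within 1.5-fold. Rxra (chromosome 3, between 6211788 and 6295908) was at 6.42 FPKM in vehicle and 7.997 FPKM in CORT rats, a log2 ratio of 0.32. Rarb (chromosome 15, between 10120205 and 10262599), whose window holds the repeat shown above and whose gene is a known target of retinoic acid, had 2.04 FPKM in vehicle and 2.11 FPKM in CORT rats, a log2 ratio of 0.05. Rara (chromosome 10, between 86860684 and 86884210) had 2 transcripts with nearly the same log2 ratio. The more abundant, ENSRNOT00000084644.1, was at 4.74 and 4.85 FPKM, a log2 ratio of 0.03, and the other, ENSRNOT00000008659.4, was at 2.09 and 2.16 FPKM, a log2 ratio of 0.05. The less abundant Rara transcript made up 30.6% of the Rara FPKM with vehicle and 30.9% with CORT.

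Rxrg (chromosome 13, between 85818426 and 85868552), the RXR with the most restricted expression in the brain, also had 2 transcripts, and their values differed more. The more abundant, ENSRNOT00000006117.5, had 3.86 FPKM in vehicle and 4.60 FPKM in CORT rats, a log2 ratio of 0.25. The less abundant, ENSRNOT00000077227.1, had 0.990 FPKM in vehicle and 1.97 FPKM in CORT rats, a log2 ratio of 0.99, which rests on the lowest values of the 11 transcripts. With 1 FPKM added to both groups this ratio was 0.58 and no longer past 1.5-fold. The share of the less abundant transcript in the Rxrg FPKM was 20.4% with vehicle and 30.0% with CORT. Of 1836 genes with exactly 2 transcripts at a mean of 1 FPKM or more, 265 (14.4%) had log2 ratios at least as far apart as the 0.74 between the Rxrg transcripts. With both transcripts summed, Rxrg was at 4.85 and 6.57 FPKM, a log2 ratio of 0.44.

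The remaining receptors of each family place these values in context. The 3 RAR genes summed to 12.0 FPKM in both groups, of which Rara made up 56.8% with vehicle and 58.3% with CORT. Rarg had 3.16 FPKM in vehicle and 2.90 FPKM in CORT rats, a log2 ratio of -0.13. The RXR genes summed to 75.1 FPKM in vehicle and 85.4 FPKM in CORT rats, a log2 ratio of 0.19. Most of this sum came from the 8 transcripts of Rxrb, which made up 85.0% with vehicle and 82.9% with CORT. The order of levels by gene was Rxrb, then Rara or Rxra, then Rxrg, Rarg and Rarb, and it differed between groups only in that Rara was above Rxra with vehicle and below it with CORT. Without values per rat, it cannot be said which neighbours in this order differ beyond the spread between rats.

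**Figure D2:**
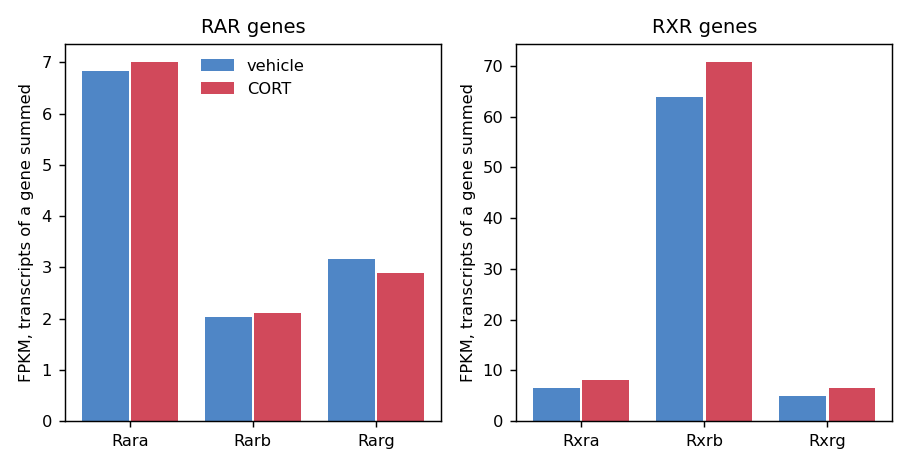
FPKM (linear axes from 0, a separate axis for each panel) of the RAR and RXR genes in the vehicle and CORT groups, with the transcripts of each gene summed and 1 group value per bar. The RAR genes have nearly equal bars in both groups, and Rxrb, at 63.8 and 70.8 FPKM, stands above Rxra and Rxrg.

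Other genes of the pathway, taken from 4 lists of 38 genes, were mostly within 1.5-fold. Of these, 23 were present in the table, and the most abundant one was used for each gene. Of the 23 genes, 1 was lower and 0 were higher by at least 1.5-fold, beside 3.99% lower and 1.92% higher of all 13272 gene symbols. The 1 gene was Rbp2, a cellular retinol-binding protein best known from the intestine, with 1.06 FPKM in vehicle and 0.556 FPKM in CORT rats, a log2 ratio of -0.93 on low values. The median log2 ratio of the 23 genes was -0.10, beside 0.02 over all gene symbols.

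Among the genes for supply and storage (9 of 13 with a transcript, median -0.11), Ttr, transthyretin, which binds RBP4 in blood and is abundant in the choroid plexus, had 6605 FPKM in vehicle and 6598 FPKM in CORT rats. The enzymes that oxidize or reduce retinol or retinal (9 of 18 with a transcript, median -0.06), a list that holds Aldh1a3 among those without one, had no member past 1.5-fold. Rdh10, which starts the oxidation of retinol, was at 6.43 and 6.02 FPKM, a log2 ratio of -0.10. Dhrs3, which reduces retinal back to retinol, was at 10.7 and 11.6 FPKM, a log2 ratio of 0.12.

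For carriage and breakdown, 3 of 5 genes had a transcript, with a median of -0.13. Cyp26b1, the CYP26 enzyme known from the hippocampus, was at 4.05 and 3.71 FPKM, a log2 ratio of -0.13, while Cyp26a1 and Cyp26c1 had none. Fabp5, a fatty acid-binding protein that can also bind retinoic acid, was at 210 and 175 FPKM, a log2 ratio of -0.26.

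Genes known to respond to retinoic acid were listed separately, and 8 of 11 had a transcript, some of them also in the lists above. Of these 8 genes, 1 was lower and 0 were higher by at least 1.5-fold, beside 3.99% lower and 1.92% higher of all gene symbols. The median log2 ratio of the 8 genes was -0.13. The 1 gene was Rarres1, a retinoic acid receptor responder, with 3.16 FPKM in vehicle and 2.04 FPKM in CORT rats, a log2 ratio of -0.63. Tgm2, transglutaminase 2, was at 6.74 and 8.55 FPKM, a log2 ratio of 0.34. The group therefore held values on both sides of 0, with 5 below and 3 above.

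**Figure D3:**
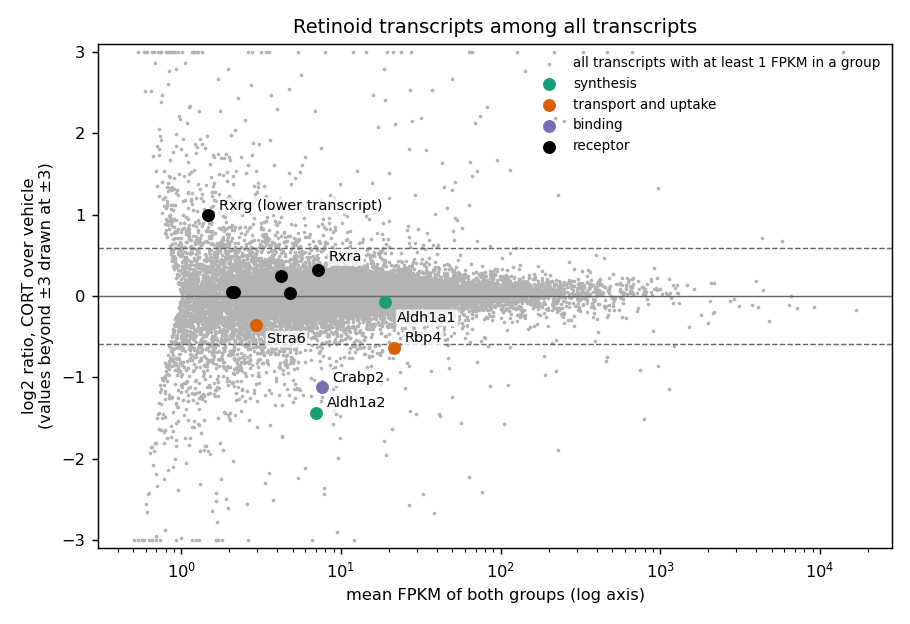
Log2 ratio of CORT over vehicle against mean FPKM (log axis) for transcripts with at least 1 FPKM in a group (grey) and the 11 retinoid transcripts (colored by role), with dashed lines at 1.5-fold. Aldh1a2 and Crabp2 lie below the dense part of the grey points, Rbp4 just past the lower dashed line, and the receptors within it apart from the less abundant Rxrg transcript.

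Markers of the tissues that a dissected hippocampus can carry were compared with the retinoid genes, on lists that were chosen with earlier results of these data known. Of 20 meningeal fibroblast markers with a transcript, out of 23 listed and with none of the 9 retinoid genes among them, 11 were lower and 0 were higher with CORT by at least 1.5-fold, beside 3.99% lower and 1.92% higher of all gene symbols, and their median log2 ratio was -0.81. Their summed level was 327 FPKM with vehicle and 249 FPKM with CORT, and none was at 0. Col1a1 and Col3a1, fibrillar collagens of fibroblasts, had log2 ratios of -1.15 and -1.29, from 7.66 to 3.44 FPKM and from 10.7 to 4.35 FPKM. Slc6a13 and Slc22a6, transporters of meningeal fibroblasts, had log2 ratios of -1.25 each, and the transcription factor gene Foxc1 had one of -1.20. The other 6 markers lower by at least 1.5-fold were Slc47a1, Foxd1, Slc6a20, Islr, Tbx18 and Osr1. The 3 most abundant markers, Igfbp2, Igf2 and Mgp, had log2 ratios of -0.28, -0.35 and -0.22, and Dcn was the 1 marker above 0, at 0.09.

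The log2 ratio of Aldh1a2 was below that of 19 of the 20 meningeal markers, that of Crabp2 below 13 and that of Rbp4 below 9, so the 3 values lay within the range of the list, from -1.56 to 0.09. Stra6 was below 5 of these markers and Aldh1a1 below 1. A range that held all 3 values was not particular to the meningeal list. That of the thalamic or habenular neuron markers described below, from -2.61 to 0.02, held them too. Of the 3, only Rbp4 lay within the ranges of the astrocyte markers (-0.91 to 0.18) and the endothelial markers (-1.01 to 0.44). The part of the meninges in the lower Aldh1a2, Crabp2 and Rbp4 was not tested.

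Markers of the choroid plexus, which lies beside the hippocampus and makes transthyretin, were described in the same way. Of 15 choroid plexus markers with a transcript, out of 17 listed, 0 were lower or higher by at least 1.5-fold. Over all gene symbols, 3.99% were lower and 1.92% higher. The median log2 ratio of the 15 markers was -0.02. Without Ttr, the summed level of these markers was 265 FPKM with vehicle and 251 FPKM with CORT, and none was at 0. Folr1, Clic6 and Kcnj13, which mark the plexus epithelium, had log2 ratios of -0.05, 0.13 and -0.16. Aldh1a2, Crabp2 and Rbp4 each had a log2 ratio below those of all 15 of these markers, and Stra6 below 14. The part of the choroid plexus in the values of the retinoid genes was not tested.

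Markers of other cells also differed, and their counts stand beside 3.99% lower and 1.92% higher of all gene symbols. Of 10 thalamic or habenular neuron markers with a transcript, 6 were lower by at least 1.5-fold (Chrna3, Gpr151, Chrnb4, Prkcd, Tcf7l2 and Slc17a6). The median of the 10 was -0.85, with a summed level of 68.9 FPKM with vehicle and 47.6 FPKM with CORT. Rgs16 and Lhx9 had log2 ratios of 0.02 each, Tac1 had -0.09, and Calb2, the most abundant, had -0.20. Among 9 astrocyte markers, 3 were lower (Gfap, Sox9 and Aldh1l1) and 3 had log2 ratios above 0 (Slc1a2, Gjb6 and Fgfr3). The median of the 9 was -0.10, with sums of 1548 and 1062 FPKM. Without Gfap, which went from 970 to 517 FPKM, these sums were 578 and 546 FPKM. Of 10 endothelial markers, 2 were lower (Kdr and Egfl7), with a median of -0.30 and sums of 161 and 158 FPKM. In these sums Slc2a1, a glucose transporter, had the higher value with CORT (46.1 and 62.5 FPKM, a log2 ratio of 0.44). Without Slc2a1, the endothelial sums were 115 FPKM with vehicle and 95.2 FPKM with CORT. The part of these cells in the values of the retinoid genes was not tested.

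Markers of neurons of the labelled tissue were present in both groups. The 8 hippocampal neuron markers with a transcript, out of 10 listed, summed to 1732 and 1863 FPKM and had a median log2 ratio of 0.03, with 0 past 1.5-fold. Most of this sum came from Slc17a7 and Camk2a, which excitatory neurons of the forebrain express in general. Prox1, a marker of dentate granule cells, was at 10.9 and 8.96 FPKM, a log2 ratio of -0.28.

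**Figure D4:**
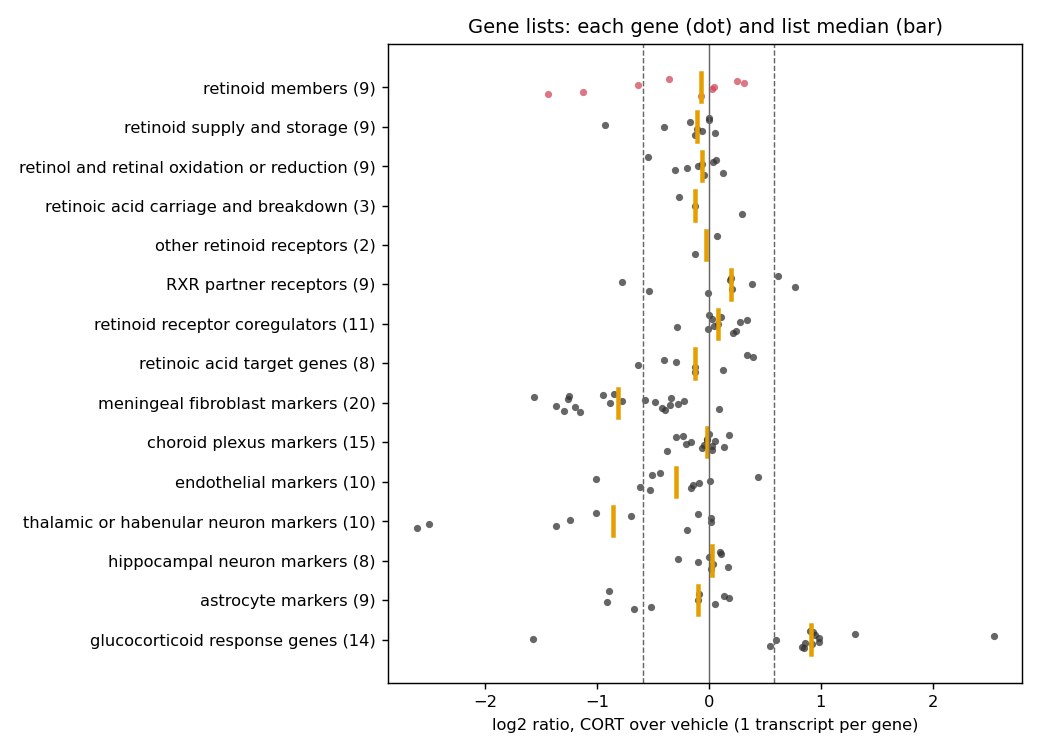
Log2 ratio of CORT over vehicle for each gene (dots, 1 transcript per gene) of the 9 retinoid genes and 14 other gene lists, with the list median (bar), dashed lines at 1.5-fold, and the number of genes with a transcript in brackets. The thalamic or habenular list has a median of -0.85, the meningeal list -0.81, the endothelial list -0.30 and the choroid plexus list -0.02.

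Of 14 known glucocorticoid response genes, also chosen with earlier results known, 12 were higher with CORT by at least 1.5-fold and 1 was lower, beside 1.92% higher and 3.99% lower of all gene symbols, with a median log2 ratio of 0.91. Per1, the clock gene used by the study as a glucocorticoid target, had a log2 ratio of 0.95, and Sgk1 and Tsc22d3 had ratios of 1.31 and 0.93. Mt1, a metallothionein, was the 1 gene of this list that was lower, with a log2 ratio of -1.57. By the most abundant transcript of each gene, as used for this list, the highest log2 ratio of the 9 retinoid genes was 0.32, below the median of the list. The less abundant Rxrg transcript, at 0.99 on low values, was above that median.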

How the data were processed

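Hippocampal RNA of 4 vehicle-infused and 4 CORT-infused ADX rats was sequenced from stranded libraries. Per the labels' processing notes the authors used CASAVA 1.8.2, TopHat2 2.0.10, Cuffdiff 2.2.0 and rn6. Per the methods they applied geometric normalization between libraries, removed transcripts under a minimum alignment count, and corrected for multiply mapped reads, sequence bias and effective length. The authors' deposited FPKM, 1 value per group and transcript, were the values used. Its remaining columns hold the authors' fold changes, test statistics, p-values and q-values and were not used. A test on values per rat was planned but not possible with group values. The depth per library is unknown, so no interval was computed.

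Log2 ratios were computed without a pseudocount. The 9 genes and the 14 other lists were chosen with earlier results of these data known. Every transcript of the 9 genes is given. From other lists, genes at least 1.5-fold apart with at least 1 FPKM in a group were named, but not all of them. Of the glucocorticoid response genes, only Per1, Sgk1, Tsc22d3 and Mt1 were named. Close relatives and some of the most abundant members were named too. Foxd1, under 1 FPKM in both groups, was named to complete a count, and some others to explain a step of the pathway. Slc2a1, Prox1 and the named astrocyte and thalamic or habenular markers within 1.5-fold were added after their values were seen. Some listed genes are counted in their lists but not reported by name here. One listed gene is represented by its most abundant transcript, matched by exact symbol, and no listed gene without a transcript was found under a RefSeq synonym. Promoter windows came from RefSeq (GRCr8) and matched all 9 genes. The counting and motif search were tested on simulated data. Alternatives were pseudocounts of 1 and 0.1 FPKM, a filter of 1 FPKM, median centring, equal FPKM totals, summed transcripts, and a lower and a higher fold. Python 3.11.15, numpy 2.4.6, pandas 2.3.3 and matplotlib 3.10.9 were used.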

Additional observations from a re-analysis of the deposited data

How the results depend on the processing

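Aldh1a2, Crabp2 and Rbp4 were lower by at least 1.5-fold under each of the alternatives that keep that threshold, with log2 ratios from -1.53 to -1.23, from -1.21 to -0.98 and from -0.73 to -0.61. At a fold of 2 the count of lower transcripts was 2, and at the lower of the other thresholds it was 4. The count of higher transcripts was 0 in place of 1 with 1 FPKM added, with the transcripts of a gene summed and at a fold of 2, and 1 under the other alternatives. The median log2 ratio was -0.074 with transcripts summed, in place of 0.03, because 9 genes then replace 11 transcripts. Scaling to equal FPKM totals gave a median of -0.06. With 1 FPKM added, the log2 ratios of 3 transcripts moved by over 0.1, and none that was past 1.5-fold changed sign under any alternative. Leaving out each rat was not run. No paired analysis was possible because only group values were read.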

Other observations

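The lists of RXR partners and of coregulators of both receptor families were plotted above, and their values are given here. Of 9 partner receptors with a transcript, out of 13 listed, 2 were higher and 1 was lower with CORT by at least 1.5-fold. Over all gene symbols, 1.92% were higher and 3.99% lower. The median log2 ratio of the 9 partner receptors was 0.20. Nr4a1, an immediate early gene that pairs with RXR, had 12.5 FPKM in vehicle and 21.4 FPKM in CORT rats, a log2 ratio of 0.77. Thrb, a thyroid hormone receptor, was at 4.37 and 6.69 FPKM, a log2 ratio of 0.62. Ppara, a receptor for fatty acids, was at 1.13 and 0.658 FPKM, a log2 ratio of -0.77 on low values. Thra, the most abundant partner, was at 250 and 288 FPKM, within 1.5-fold.

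All 11 coregulators, among them the corepressor Ncor1 and the coactivators Ncoa1, Ncoa2 and Ncoa3, had a transcript and were within 1.5-fold. Their log2 ratios ranged from -0.29 to 0.34, with a median of 0.08. Hdac3, the deacetylase of the corepressor complex, had the highest FPKM of the list, at 51.9 with vehicle and 51.5 with CORT.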
